A study of Mus musculus with 36 samples.

Results

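The Hoxa cluster is one of the clusters of Hox genes of the mouse, and 8 of its genes, Hoxa2, Hoxa3, Hoxa4, Hoxa5, Hoxa7, Hoxa9, Hoxa11 and Hoxa13, were followed across 16 regions of the elongating embryo. They were chosen by symbol: every probe of the deposited table annotated to one of these genes was taken, 15 probes for 8 of 30869 gene symbols, and no measured value enters the rule. The brightest probe of 7 of the 8 genes could be tested, among 15556 gene symbols with a tested probe. The antisense transcript Hoxa11s lies in the same cluster and appears only where stated.

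The study measured gene expression with Illumina mouse bead arrays in regions dissected from wild-type MF1 mouse embryos while the body axis lengthens. Each array held RNA from a pool of 6 to 74 dissected pieces of a single region and stage, with 2 or 3 pools per region and 36 arrays in all. At E7.5, the headfold stage, the regions were the anterior of the embryo (A, 3 pools), the posterior (P, 2 pools) and the proximal posterior (PP, 2 pools). At E8.5 they were the rostral node (RN, 2 pools), the node-streak border (NSB, 3 pools), the caudal lateral epiblast (CLE, 3 pools) and the rostral (St1, 2 pools) and caudal (St5, 2 pools) ends of the primitive streak. The chordoneural hinge (CNH), where notochord and neural tube meet in the tail bud, was taken at E9.5, E10.5, E12.5 and E13.5 (2 pools each) and at E11.5 (3 pools). The tissue behind the hinge (P-CNH) was sampled at E9.5, E10.5 and E11.5 (2 pools each).

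Hox genes encode homeodomain transcription factors that give cells along the body axis their positional identity. Genes at one end of a cluster, such as Hoxa2, are switched on first and reach furthest forward in the embryo, and genes at the other end, such as Hoxa13, come on last and furthest back. In the streak and tail bud this sequence runs alongside the laying down of the trunk and tail.

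Levels are log2 intensities after background correction and normalisation, and a probe counts as detected on an array where its deposited detection p-value was under 0.01. Between 10814 and 16256 of 45281 probes were detected per array, and 21712 detected on at least 1 array were tested. Differences come from a limma fit of the 16 regions with a term for 3 array batches of 12 arrays each, and are called when the fold change reaches 1.5 and the adjusted p does not exceed 0.05. Where every array of a region left a probe undetected its level there is a bound, so a called difference is written as at least so many fold, the smaller of the bounds from plain means and from the fit. Of the NSB pools only replicate 3 was hybridised outside batch 1, and no other region links batch 1 to the rest, so a difference that crosses from batch 1 rests on that single array. The spread between pools contains the embryos in the pool, the dissection, the RNA and the hybridisation together. Fewer cells of a type and less RNA per cell cannot be told apart in any of these pools.

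**Figure D1:**
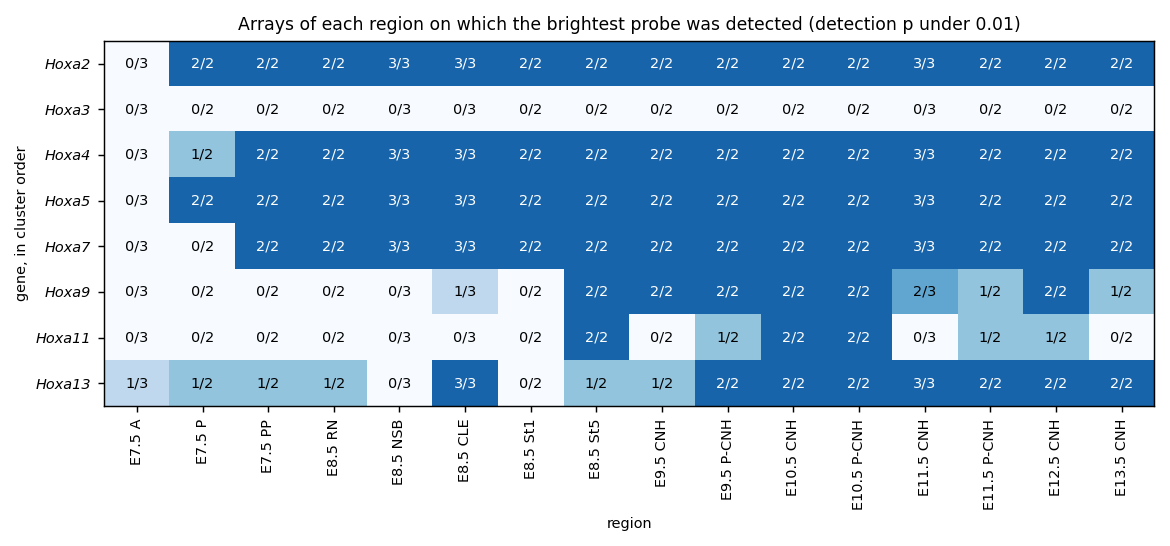
Number of arrays of each region on which the brightest probe of each Hoxa gene was detected. Genes run in cluster order and regions by stage.

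Every tested Hoxa gene from Hoxa2 to Hoxa11 was undetected in the anterior embryo at E7.5, and Hoxa9 and Hoxa11 were detected on fewer arrays than Hoxa2, Hoxa4, Hoxa5 and Hoxa7. On the 3 arrays of E7.5 A, the brightest probes of Hoxa2, Hoxa4, Hoxa5, Hoxa7, Hoxa9 and Hoxa11 were detected on 0 arrays and that of Hoxa13 on 1. Over all 36 arrays the brightest probe was detected on 33 for Hoxa2, 32 for Hoxa4, 33 for Hoxa5, 31 for Hoxa7, 17 for Hoxa9, 9 for Hoxa11 and 24 for Hoxa13. For Hoxa3 the brightest of its 3 probes was detected on 0 arrays. A second Hoxa3 probe was detected on 3, both St1 pools (5.80 and 5.70) and NSB replicate 1 (5.72), so Hoxa3 enters no test by its brightest probe.

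Hoxa2 patterns the hindbrain and its neural crest, and it separated the anterior embryo from every other region sampled. In E7.5 A it stood at 5.49, 5.12 and 5.14, in P at 8.56 and 9.52, and in PP at 9.31 and 9.62. At E8.5 it read 8.61 and 8.47 in RN, 9.09, 8.98 and 9.49 in NSB, 9.05, 9.52 and 9.53 in CLE, 9.37 and 9.24 in St1, and 9.01 and 8.66 in St5. All arrays outside E7.5 A lay above all 3 arrays of E7.5 A, with no overlap. The CNH gave 10.03 and 10.05 at E9.5, 9.5 and 9.27 at E10.5, 9.24, 9.56 and 9.80 at E11.5, 9.42 and 9.66 at E12.5, and 9.33 and 9.16 at E13.5, and the P-CNH 10.42 and 10.18, 9.35 and 9.34, and 9.60 and 9.21 at E9.5, E10.5 and E11.5. Ordered by mean, E9.5 P-CNH was highest at 10.30 and E9.5 CNH next at 10.04, with a gap larger than their spread, while 11 of the 15 neighbouring pairs of regions had overlapping arrays.

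Hoxa4, which helps to set the identity of neck vertebrae, came up more gradually. Its levels were 4.64, 4.97 and 4.68 in E7.5 A, 6.35 and 6.67 in P, and 7.22 and 7.96 in PP. At E8.5 they were 7.34 and 6.94 in RN, 7.97, 7.56 and 8.77 in NSB, 8.32, 8.69 and 8.72 in CLE, 8.43 and 8.14 in St1, and 7.71 and 7.5 in St5. Those E7.5 groups do not overlap and ascend from A to PP, whereas NSB overlaps CLE, St1 and St5. In the tail bud the CNH gave 9.48 and 9.5 at E9.5, 8.72 and 8.81 at E10.5, 8.93, 9.39 and 9.55 at E11.5, 8.05 and 8.85 at E12.5, and 8.15 and 8.15 at E13.5, and the P-CNH 9.83 and 9.86, 8.53 and 8.79, and 9.06 and 8.72. Mean levels peaked at E9.5, 9.84 in P-CNH and 9.49 in CNH, and 12 of 15 neighbouring pairs overlapped.

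Hoxa5 acts in the neck and upper chest, including the lung. It read 4.61, 4.69 and 4.42 in E7.5 A, 8.10 and 9.47 in P, and 9.70 and 10.13 in PP. At E8.5 the values were 9.47 and 9.35 in RN, 9.97, 9.78 and 9.33 in NSB, 10.09, 8.60 and 9.03 in CLE, 9.55 and 9.52 in St1, and 9.57 and 9.38 in St5. The E8.5 values lie among one another, and all lie above E7.5 A. Tail bud CNH pools gave 10.61 and 10.51 at E9.5, 10.96 and 10.89 at E10.5, 10.93, 11.55 and 10.87 at E11.5, 11.01 and 11.20 at E12.5, and 11.30 and 9.39 at E13.5, and P-CNH pools 10.59 and 9.92, 11.18 and 10.97, and 9.23 and 10.79. The highest mean was 11.12 in E11.5 CNH, and 12 of the 15 neighbouring pairs overlapped.

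Hoxa7, a gene of the trunk, ran from a mean of 4.65 in E7.5 A to 12.58 in St5. It was undetected in E7.5 A (4.66, 4.52 and 4.78) and P (4.93 and 4.93) and detected in PP (7.35 and 6.32). E8.5 gave 9.60 and 10.22 in RN, 10.68, 11.06 and 10.59 in NSB, 11.44, 12.05 and 12.10 in CLE, 10.78 and 11.02 in St1, and 12.55 and 12.61 in St5. RN lay below NSB and St5 above every other E8.5 array, while NSB and St1 overlapped. The CNH read 12.22 and 12.26 at E9.5, 11.78 and 12.02 at E10.5, 11.92, 12.24 and 11.13 at E11.5, 11.46 and 11.74 at E12.5, and 10.27 and 9.81 at E13.5, and the P-CNH 12.56 and 12.37, 12.28 and 12.05, and 10.80 and 11.38. St5 (mean 12.58) and E9.5 P-CNH (12.46) led the order, and 8 of 15 neighbouring pairs overlapped, the fewest of the 8 genes.

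Hoxa9, which acts from the lower trunk and in blood progenitors, marked the caudal streak and the tail bud. It was undetected in every E7.5 pool (5.19, 4.86 and 5.13 in A, 4.78 and 4.89 in P, 4.90 and 5.15 in PP), in RN (5.19 and 5.10), in NSB (5.08, 5.45 and 5.52) and in St1 (5.15 and 5.42). In CLE it read 5.12, 4.63 and 6.09, detected in replicate 3 only, and in St5 it read 7.98 and 8.18. Both St5 pools lay above all other pools of E8.5 and E7.5. The CNH gave 8.53 and 8.69 at E9.5, 7.65 and 7.76 at E10.5, 8.58, 7.64 and 5.68 at E11.5, 8.46 and 7.26 at E12.5, and 6.93 and 4.79 at E13.5, and the P-CNH 7.85 and 8.10, 7.62 and 7.91, and 5.14 and 7.5. E11.5 CNH replicate 3 (5.68), E11.5 P-CNH replicate 1 (5.14) and E13.5 CNH replicate 2 (4.79) were undetected, each with a detected pool of the same region beside it, and 13 of 15 neighbouring pairs overlapped.

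Hoxa11 patterns the forearm and the sacral spine, and its signal was confined to 9 arrays. No pool of E7.5, RN, NSB, CLE or St1 was detected, and St5 read 6.27 and 6.67. The CNH gave 5.33 and 5.33 at E9.5, 7.62 and 7.59 at E10.5, 4.67, 4.71 and 5.28 at E11.5, 4.54 and 5.65 at E12.5, and 4.93 and 4.96 at E13.5, and the P-CNH 5.38 and 7.26, 7.56 and 8.01, and 7.06 and 5.00. All 4 pools of E10.5 stood above every other array of the gene. Mean levels were led by E10.5 P-CNH (7.78), E10.5 CNH (7.61) and St5 (6.47), and 13 of 15 neighbouring pairs overlapped.

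Hoxa13, the last gene of the cluster and one needed for digits and the hindgut outlet, ran from a mean of 5.17 in St1 to 7.38 in E10.5 P-CNH. Its levels were 6.01, 6.40 and 5.91 in E7.5 A, 6.35 and 6.06 in P, 5.54 and 5.75 in PP, 5.66 and 5.08 in RN, 5.33, 5.04 and 6.25 in NSB, 5.37 and 4.96 in St1, and 5.71 and 6.00 in St5. CLE gave 7.72, 7.12 and 6.14, detected on 3 of 3 arrays, with replicate 3 inside the range of NSB and E7.5 A. The lowest level of any detected probe on these CLE arrays was 7.10, 6.65 and 5.88, so Hoxa13 lay near the detection limit there. The CNH gave 6.59 and 5.92 at E9.5, 7.10 and 7.26 at E10.5, 7.17, 7.16 and 6.66 at E11.5, 7.11 and 7.15 at E12.5, and 6.34 and 7.73 at E13.5, and the P-CNH 6.28 and 6.45, 7.26 and 7.5, and 7.12 and 7.61. From E10.5 on every tail bud pool was detected, but each of the 15 neighbouring pairs of regions overlapped.

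**Figure D2:**
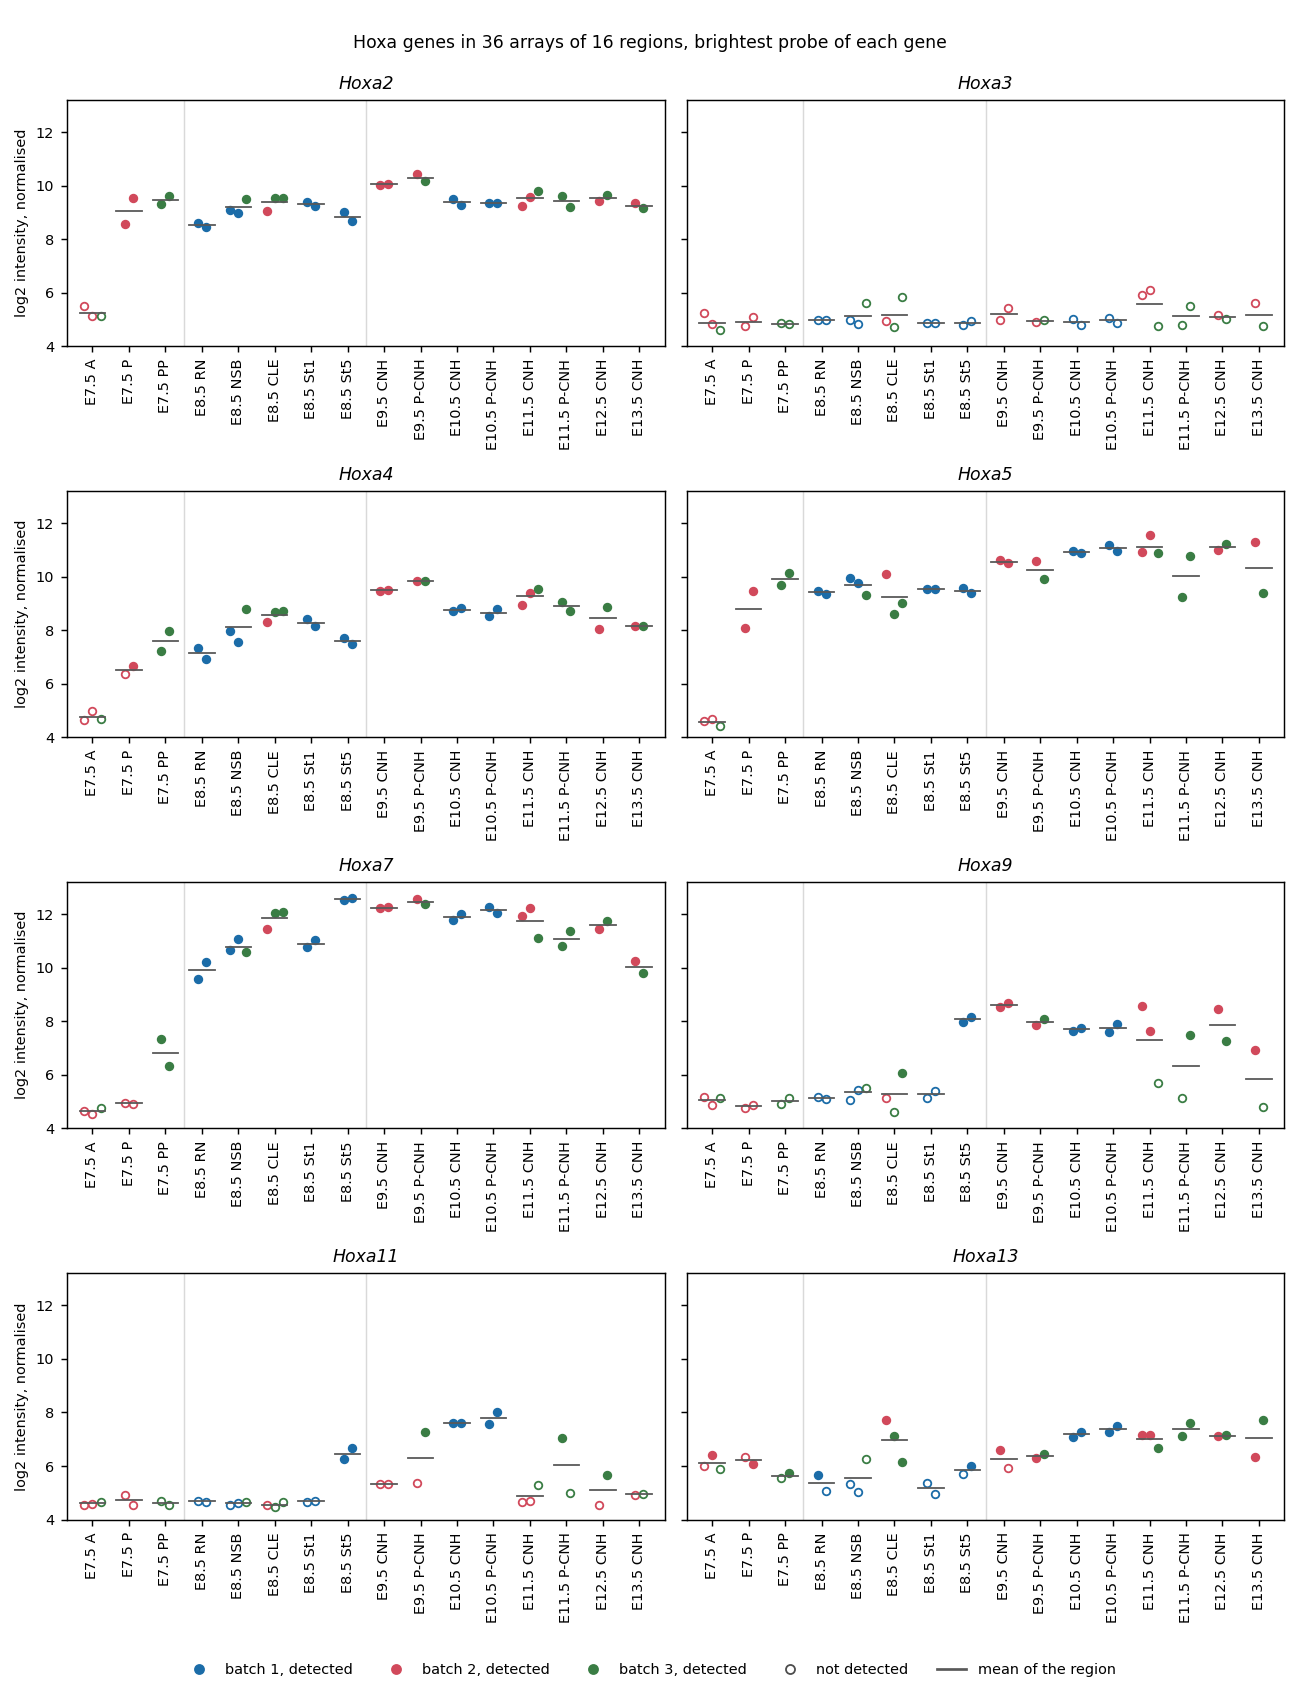
Log2 level of the brightest probe of each Hoxa gene on every array, by region, coloured by batch. Filled points are detected.

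Between the anterior and the posterior of the E7.5 embryo, the early end of the cluster divided the tissue. Posterior tissue carried Hoxa2, Hoxa4 and Hoxa5, and anterior tissue none of them. Hoxa7, Hoxa9 and Hoxa11 had not appeared in either. In P over A, 3 Hoxa genes were called higher, beside 2.73 percent of the 21712 tested probes called (593). Hoxa2 was higher by 3.83 (SE 0.25, adjusted p 5.22e-10, at least 7.92-fold), and its second probe by 4.11 (SE 0.28, adjusted p 1.27e-09, at least 6.18-fold). For Hoxa5 the difference was 3.98 (SE 0.43, adjusted p 1.71e-06, at least 5.63-fold). Hoxa4 differed by 1.83 (SE 0.25, adjusted p 5e-05, at least 1.37-fold), with P replicate 1 itself undetected at 6.35. Batch 2 alone, which holds both regions, gave 3.73 for Hoxa2 (adjusted p 0.00348), 1.70 for Hoxa4 (adjusted p 0.0182) and 4.13 for Hoxa5 (adjusted p 0.00696), and no single omitted array ended a call. The same comparison called 4 of 5 axial progenitor markers higher and 3 of 4 tested anterior neural markers lower, led by Lhx5 (-2.91, SE 0.36) and Otx2 (-2.47, SE 0.26). The mean log2 level of the anterior neural list was 7.47, 7.56 and 8.12 in A and 6.18 and 5.92 in P, so position and tissue type change together and cannot be told apart.

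Among genes that act on Hox expression, Wnt3a (at least 67.2-fold), Cdx1 (at least 49.1-fold) and Cdx2 (5.93, SE 0.22) were higher in P over A, 8 of 14 tested being called higher and 1 lower. Promoter letters are shown for the genes whose differences carry the results, because Cdx factors and retinoic acid receptors are named regulators of Hox genes. Windows from 250 bases before to 50 after the RefSeq start site were taken from the mouse assembly GRCm38.p6, and Hoxa2, Hoxa3, Hoxa5, Hoxa7, Hoxa9, Hoxa11 and Hoxa13 were matched and Hoxa4 was not. TTTATG, a Cdx-type site, and AGGTCA, the core of many nuclear receptor sites, were looked for on both strands and are in capitals. TTTATG occurs in 11.9 percent of 32851 windows and AGGTCA in 16.3 percent. Hoxa2 (chr6:52164782-52165081, minus strand) holds neither, and Hoxa5 (chr6:52204538-52204837, minus strand) holds one AGGTCA at 42. A match describes the letters and was not tested for function.
Hoxa2: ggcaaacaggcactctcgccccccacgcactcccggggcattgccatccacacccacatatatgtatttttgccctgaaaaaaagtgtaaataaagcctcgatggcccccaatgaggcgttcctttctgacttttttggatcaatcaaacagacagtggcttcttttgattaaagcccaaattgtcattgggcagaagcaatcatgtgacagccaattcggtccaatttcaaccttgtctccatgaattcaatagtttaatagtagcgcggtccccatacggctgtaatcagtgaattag
Hoxa5: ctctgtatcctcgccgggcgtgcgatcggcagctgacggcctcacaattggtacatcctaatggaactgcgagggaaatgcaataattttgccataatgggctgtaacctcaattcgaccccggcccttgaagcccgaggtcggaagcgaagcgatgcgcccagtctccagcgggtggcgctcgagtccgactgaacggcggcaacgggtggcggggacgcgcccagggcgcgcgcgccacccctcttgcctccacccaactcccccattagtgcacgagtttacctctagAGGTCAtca

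Within the posterior at E7.5, the proximal tissue, which lies nearest the extraembryonic border, was the first place where Hoxa7 was seen. PP over P called 1 Hoxa gene, beside 0.792 percent of tested probes (172). Hoxa7 was higher by 1.98 (SE 0.39, adjusted p 0.0124, at least 1.71-fold). Hoxa5 (1.83, SE 0.52, adjusted p 0.125) and Hoxa4 (0.84, SE 0.30, adjusted p 0.278) were not called. The Hoxa7 call ended without PP replicate 1 (7.35; 1.46, adjusted p 0.311) or P replicate 1 (4.93; adjusted p 0.06), and without P replicate 2 (9.47 for Hoxa5) the count was 2, Hoxa5 joining at 2.52 (adjusted p 0.0378). It also ended without background correction (1.13, adjusted p 0.172), with an offset of 100 (0.91, adjusted p 0.254), with cyclic loess (adjusted p 0.0656), with batch means removed (1.32, adjusted p 0.286) and with a BeadChip term fixed (adjusted p 0.344) or random (adjusted p 0.0548), and no batch holds both regions. Visceral endoderm markers came with it: 2 of 7 were called higher, Rbp4 (at least 5.09-fold) and Afp (at least 3.07-fold), and the list mean was 8.89 and 8.55 in P against 11.73 and 10.54 in PP. Lateral mesoderm markers were called higher in 1 of 5 (Hand1 at least 2.76-fold), and tested somite markers lower in 2 of 2 (Tcf15 -3.63, Meox1 -2.21). Also lower were 1 of 4 tested anterior neural markers (Otx2 -3.38) and 1 of 2 tested neural tube markers (Irx3 -3.53). Of 14 upstream genes Cdx4 was called higher (at least 3.02-fold, adjusted p 0.0266).

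Moving from E7.5 P to the E8.5 node-streak border adds a day and changes the tissue from the posterior of the embryo to the place where axial progenitors lie. Hoxa7 goes from undetected to detected, and Hoxa4 was higher. NSB over E7.5 P called 2 Hoxa genes, beside 3.07 percent of tested probes (667). Hoxa7 was higher by 5.73 (SE 0.46, adjusted p 6.14e-08, at least 24.4-fold), and Hoxa4 by 2.02 (SE 0.36, 4.07-fold, adjusted p 0.00144). Hoxa5 (1.25, SE 0.61, adjusted p 0.326) was not called. The count was 2 in every fit with 1 array left out, while cyclic loess ended the Hoxa4 call (1.95, adjusted p 0.0794). Cdx4 was the 1 gene of 14 upstream genes called higher (at least 3.61-fold, adjusted p 0.0166). Other tissues changed in this step: notochord and node markers were called higher in 3 of 5 (Shh 3.50, SE 0.73) and visceral endoderm markers lower in 2 of 7 (Apob at least 20.2-fold). Anterior neural markers were lower in 2 of 4 tested (Otx2 -3.66, SE 0.38), endothelial markers in 1 of 3 (Flt1 -2.80, SE 0.60) and lateral mesoderm markers in 1 of 5 (Isl1 at least 6.89-fold). Blood markers were higher in 1 of 5 (Hbb-bh1 at least 3.9-fold), and of 2 tested neural tube markers Olig3 was higher (1.61, SE 0.38) and Irx3 lower (-2.88, SE 0.67).

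Between neighbouring regions near the node at E8.5, no Hoxa gene was called, though the Hoxa7 pools of RN, NSB and CLE did not overlap and ascended in that order. RN, NSB and St1 succeed one another from front to back along the midline, and CLE flanks the streak. The brightest Hoxa7 arrays of this set were in CLE. How many tested probes rose from RN through NSB to CLE without overlap was not counted. NSB over RN called 0 Hoxa genes by limma, with 2 at unadjusted p under 0.05, and 0.134 percent of tested probes (29). Those were Hoxa4 (0.62, SE 0.27, p 0.028) and Hoxa7 (0.96, SE 0.34, p 0.01), and in batch 1 alone Hoxa7 was called (0.96, SE 0.20, adjusted p 0.0377), and array weights called 2. St1 over NSB called 0, with 0 at unadjusted p under 0.05, and 1.42 percent of tested probes (309). CLE over NSB called 0, with 1 at unadjusted p under 0.05, and 2.4 percent of tested probes (521). Hoxa7 there differed by 1.25 (SE 0.40, adjusted p 0.143), reaching 1.49 (adjusted p 0.0432) without CLE replicate 1 (11.44). Batch 3 alone, with a single NSB pool, gave 1.49, and the count was 2 without a batch term. With batch means removed Hoxa7 in CLE over NSB was called at 2.18 (adjusted p 0.000334). Hoxa13 in CLE over NSB differed by 0.70 (SE 0.48, adjusted p 0.9). Tissue differed between these regions as well. In CLE, notochord and node markers were called lower in 4 of 5 (Shh at least 28.2-fold) and hindgut markers in 4 of 5 (Sox17 at least 5.32-fold). Tested somite markers were lower in 2 of 2 (Meox1 -2.81, SE 0.54), blood markers in 1 of 5 and visceral endoderm markers in 1 of 7.

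The caudal end of the E8.5 streak was the first place where Hoxa9 and Hoxa11 appeared in every pool. Hoxa9 and Hoxa11 were seen on both caudal pools and on neither rostral pool. The Hoxa7 mean was the highest of all regions there, though its pools overlapped those of E9.5 P-CNH. Cells at this end leave mainly for lateral and ventral mesoderm. St5 over St1 called 3 Hoxa genes higher, beside 3.27 percent of tested probes (709). Hoxa7 was higher by 1.68 (SE 0.34, 3.2-fold, adjusted p 0.00412). Hoxa9 was higher by 2.80 (SE 0.66, adjusted p 0.0144, at least 5.53-fold), its second probe by 3.60 (SE 0.75, adjusted p 0.00515, at least 6.55-fold). Hoxa11 was higher by 1.78 (SE 0.45, adjusted p 0.0224, at least 1.81-fold). Hoxa4 (-0.68, SE 0.27, adjusted p 0.283) and Hoxa13 (0.68, SE 0.41, adjusted p 0.853) were not called. Batch 1 alone, which holds all 4 pools, gave the same 3 differences with adjusted p 0.000163, 5.61e-07 and 1.72e-05 and called Hoxa4 (-0.68, adjusted p 0.0226) and Hoxa13 (0.68, adjusted p 0.043) as well.

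With 2 pools a side, leaving out 1 array weakened these streak calls. The count was 0 without St1 replicate 1 (Hoxa7 10.78, Hoxa9 5.15) or St5 replicate 2 (Hoxa7 12.61, Hoxa9 8.18), and 1, Hoxa7, without St1 replicate 2 (Hoxa9 5.42) or St5 replicate 1 (Hoxa9 7.98). Array weights gave a count of 5, and Hoxa11 lost its call with an offset of 100 (0.66, adjusted p 0.119) and without a batch term (1.78, adjusted p 0.0509). St5 also differs in tissue. Endothelial markers were called higher than in St1 in 2 of 3 tested (Cdh5 at least 3.6-fold). Axial progenitor markers were lower in 2 of 5 (Nkx1-2 -2.32, SE 0.52), tested somite markers in 1 of 2 (Meox1 -1.74, SE 0.46) and hindgut markers in 1 of 5 (Trh -2.10, SE 0.28). Of the lateral mesoderm markers 5 of 5 were called higher than in St1, among them Tbx4 (5.09, SE 0.27) and Isl1 (at least 29.8-fold). The mean log2 level of that list was 10.65 and 10.74 in St5, 6.32 and 6.03 in St1, and 6.20 and 6.52 in RN. Its summed raw intensity was 11711 and 10983 in St5, 750 and 750 in St1, and 659 and 783 in RN, and 3 and 2 of the 5 genes were detected on the St1 arrays. Whether the Hoxa differences lie in these mesoderm cells or in the streak itself was not tested.

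St5 over RN spans the whole midline and shares the St5 pools with the comparison above. It called 3 Hoxa genes higher, beside 6.05 percent of tested probes (1314). Hoxa7 was higher by 2.67 (SE 0.34, 6.36-fold, adjusted p 8.47e-06), Hoxa9 by 2.93 (SE 0.66, adjusted p 0.00535, at least 5.73-fold) and Hoxa11 by 1.78 (SE 0.45, adjusted p 0.0132, at least 1.87-fold). In batch 1 alone the adjusted p were 2.63e-06, 1.7e-07 and 9.42e-06. The count was 1, Hoxa7, without RN replicate 2 (Hoxa9 5.10) or without St5 replicate 2 (Hoxa9 8.18), and Hoxa11 also lost its call without RN replicate 1 (adjusted p 0.0923) and with an offset of 100 (0.66, adjusted p 0.0781). Tissue changed here too: lateral mesoderm markers were called higher in 5 of 5 (Isl1 4.73, SE 0.30), notochord and node markers lower in 4 of 5 (Shh -4.28, SE 0.54), and the tested neural tube and somite markers lower in 2 of 2 each (Olig3 at least 11.6-fold, and Meox1 -3.70, SE 0.46).

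The promoter windows of the 3 genes called in St5 follow, from RefSeq starts on GRCm38.p6 as before, shown because the genes were called together. Hoxa7 (chr6:52218524-52218823, minus strand) holds TTTATG at -236 and -173 from the start. Neither Hoxa9 (chr6:52227321-52227620, minus strand) nor Hoxa11 (chr6:52245761-52246060, minus strand) holds either letter sequence.
Hoxa7: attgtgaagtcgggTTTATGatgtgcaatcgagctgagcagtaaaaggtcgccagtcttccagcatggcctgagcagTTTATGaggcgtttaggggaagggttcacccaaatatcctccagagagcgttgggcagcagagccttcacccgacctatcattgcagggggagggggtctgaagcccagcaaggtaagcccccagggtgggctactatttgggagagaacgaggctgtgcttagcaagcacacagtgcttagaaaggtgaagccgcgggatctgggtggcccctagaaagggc
Hoxa9: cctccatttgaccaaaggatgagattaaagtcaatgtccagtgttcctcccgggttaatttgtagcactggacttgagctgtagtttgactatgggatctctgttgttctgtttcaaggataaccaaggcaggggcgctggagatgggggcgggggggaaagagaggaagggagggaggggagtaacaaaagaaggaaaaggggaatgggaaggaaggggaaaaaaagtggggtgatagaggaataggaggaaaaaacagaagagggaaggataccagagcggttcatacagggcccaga
Hoxa11: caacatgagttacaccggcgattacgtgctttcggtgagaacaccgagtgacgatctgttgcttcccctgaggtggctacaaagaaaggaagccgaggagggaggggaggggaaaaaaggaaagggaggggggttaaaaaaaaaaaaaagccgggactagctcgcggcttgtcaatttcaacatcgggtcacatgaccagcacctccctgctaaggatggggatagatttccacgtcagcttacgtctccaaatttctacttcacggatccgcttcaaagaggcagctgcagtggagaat

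From the proximal posterior at E7.5 to the caudal streak at E8.5, Hoxa7 was the gene called. St5 over PP called 1 Hoxa gene, beside 1.03 percent of tested probes (223). Hoxa7 was higher by 5.46 (SE 0.54, 44.1-fold, adjusted p 6.18e-06), a call kept in every fit with 1 array left out. Hoxa9 (3.32, SE 1.04, adjusted p 0.147), Hoxa11 (1.93, SE 0.70, adjusted p 0.231) and Hoxa4 (1.02, SE 0.42, adjusted p 0.315) were not called. No batch holds both regions, and the count was 3 with cyclic loess or without a batch term, 2 with batch means removed or a BeadChip term, 6 with array weights and 4 without the 5 arrays with fewest detected probes. Of those called with array weights Hoxa5 was lower (-0.98, adjusted p 0.0308). Visceral endoderm markers were lower in the same comparison (Apob -5.76, SE 0.66, and Apoa2 at least 18.9-fold) and the lateral mesoderm marker Tbx4 higher (4.91, SE 0.42).

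The step from the node-streak border to the chordoneural hinge takes the axial progenitor site from the streak into the tail bud. Hoxa9 passes from undetected to detected at E9.5, and Hoxa11 and Hoxa13 reach every pool at E10.5. E9.5 CNH over NSB called 1 Hoxa gene, beside 5.04 percent of tested probes (1095). Hoxa7 was higher by 1.58 (SE 0.46, 2.99-fold, adjusted p 0.0476), a call lost in 25 of 35 fits with 1 array left out. It was also lost with cyclic loess (1.43, adjusted p 0.315) and with a fixed BeadChip term (1.46, adjusted p 0.156), while the count was 4 without a batch term, 5 with batch means removed, 3 with a random BeadChip term, 6 with array weights and 4 without the 5 arrays with fewest detected probes. Hoxa9 (2.25, SE 0.88, adjusted p 0.174) and Hoxa4 (0.96, SE 0.36, adjusted p 0.141) were not called, with no batch holding both regions.

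E10.5 CNH over NSB has pools of both sides in batch 1, and here the later genes were called. This comparison found 4 Hoxa genes higher, beside 7.14 percent of tested probes (1550). Hoxa4 was higher by 1.00 (SE 0.27, 2-fold, adjusted p 0.0193). Hoxa9 was higher by 2.44 (SE 0.66, adjusted p 0.0217, at least 3.51-fold), Hoxa11 by 3.02 (SE 0.45, adjusted p 5.26e-05, at least 3.27-fold) and Hoxa13 by 2.00 (SE 0.41, adjusted p 0.00219, at least 2.44-fold). The other Hoxa13 probes gave 0.62 (adjusted p 0.364) and 0.73 (adjusted p 0.154), neither called. Hoxa5 (1.05, SE 0.46, adjusted p 0.251) and Hoxa7 (1.03, SE 0.34, adjusted p 0.0815) were not called, though batch 1 alone called both (adjusted p 5.47e-05 and 0.00288) beside Hoxa4 (0.00156), Hoxa9 (5.66e-07), Hoxa11 (1.24e-07) and Hoxa13 (2.73e-05). Hoxa7 was also called with no background correction (adjusted p 0.0458), an offset of 100 (0.0381), no batch term (0.0265), a random BeadChip term (0.0171), array weights (0.000133) and without the 5 arrays with fewest detected probes (0.0349), and the last 2 of these settings called Hoxa5 (9.1e-06 and 0.00142).

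For this step the count was 2 without NSB replicate 2 (Hoxa4 7.56, Hoxa9 5.45), E10.5 CNH replicate 1 (8.72, 7.65) or E10.5 CNH replicate 2 (8.81, 7.76), the Hoxa4 and Hoxa9 calls being those lost. Hoxa9 was also lost without NSB replicate 1 (5.08; adjusted p 0.188) and with no probe filter (adjusted p 0.0549). Hoxa4 was lost with cyclic loess (0.94, adjusted p 0.195), without a batch term (0.66, adjusted p 0.266) and with batch means removed (0.77, adjusted p 0.0804). Blood markers were higher than in NSB at both stages of the hinge: 3 of 5 were called at E9.5 (Hbb-y at least 82.8-fold) and at E10.5 (Hbb-y at least 191-fold). The blood list mean was 6.79, 6.83 and 6.98 in NSB, 11.88 and 11.93 in E9.5 CNH and 11.56 and 11.54 in E10.5 CNH. Hindgut markers were lower than in NSB in 4 of 5 at either stage (Trh -5.12, SE 0.37, and -4.69, SE 0.28). At E10.5 the tested neural tube markers were lower in 2 of 2 (Irx3 -2.16, SE 0.50) and visceral endoderm markers in 2 of 7 (Ttr at least 6.23-fold). Of the other Hox clusters 13 of 26 tested genes were called higher, among them Hoxd10 (at least 148-fold) and Hoxc10 (at least 80.8-fold).

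**Figure D3:**
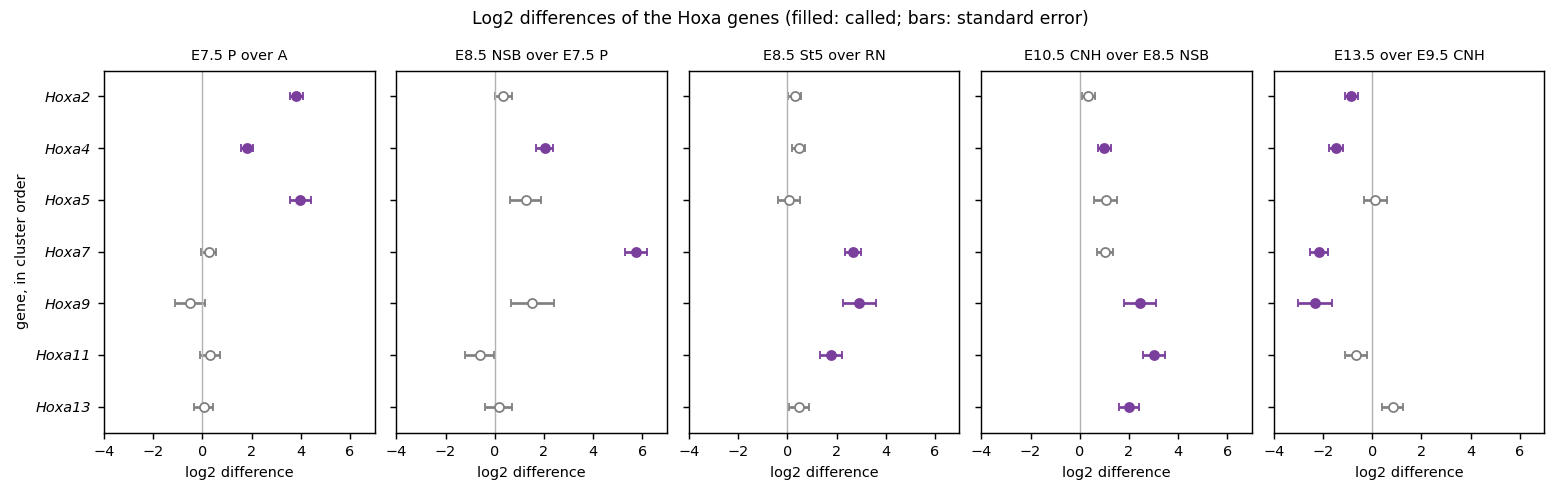
Log2 difference and standard error of each tested Hoxa gene in comparisons along the streak and between stages. Filled points are called.

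The antisense transcript Hoxa11s begins inside Hoxa11 on the opposite strand, and the levels of the 2 probes followed different courses in the tail bud. Where each probe lies on its transcript was not checked, so that the probes measure separate RNAs rests on their annotation. RefSeq places the start of Hoxa11os, taken here to be the same transcript, at 52245243 and that of Hoxa11 at 52245810 on chromosome 6, 567 bases apart. Hoxa11s was undetected up to St1 and read 6.59 and 7.00 in St5, 11.27 and 11.35 in E9.5 CNH, 11.12 and 11.04 in E10.5 CNH, 11.31, 11.80 and 12.16 in E11.5 CNH, 11.68 and 12.06 in E12.5 CNH, and 11.41 and 10.52 in E13.5 CNH. It was thus high on all tail bud arrays, on most of which Hoxa11 was undetected. St5 over St1 was called for it (2.20, SE 0.29, adjusted p 2.77e-05, at least 2.27-fold), as was E10.5 CNH over NSB (6.47, SE 0.29, adjusted p 3.31e-13, at least 36.3-fold). For Hoxa11 itself E11.5 over E10.5 CNH gave -2.42 (SE 0.70, p 0.0022, adjusted p 0.414), not called. It was called lower without a batch term (-2.72, adjusted p 0.00122) and with a random BeadChip term (-2.54, adjusted p 0.013). Array weights (-2.33, adjusted p 5.19e-05) and leaving out the 5 arrays with fewest detected probes (-2.24, adjusted p 0.0207) called it as well. Whether the antisense transcript acts on Hoxa11 was not tested.

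**Figure D4:**
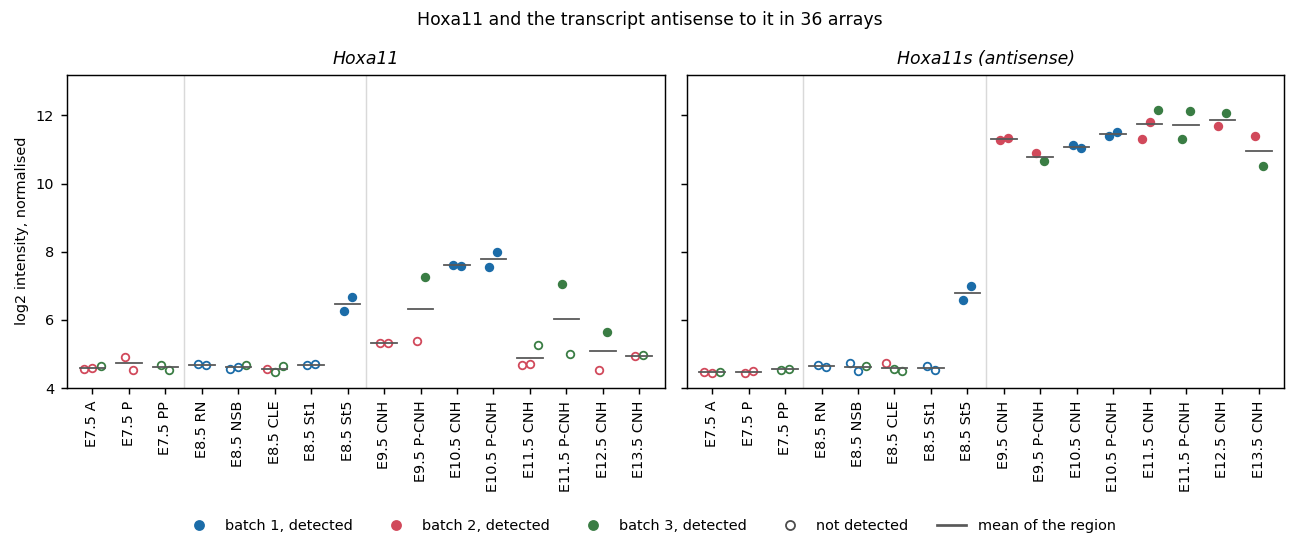
Log2 levels of Hoxa11 and of the antisense transcript Hoxa11s on every array by region. Filled points are detected.

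Inside the tail bud, no Hoxa gene was called between the hinge and the tissue behind it, though some pools did not overlap. Of genes detected on every pool compared, Hoxa2, Hoxa4 and Hoxa7 at E9.5 and Hoxa5 and Hoxa7 at E10.5 lay higher behind the hinge without overlap, and Hoxa9 at E9.5 and Hoxa5 at E11.5 lower. With so few pools a side, such separation is common without any difference. The share of all tested probes that did the same was not counted. At E9.5 the CNH pools were in batch 2, and P-CNH replicate 2 was in batch 3. Hoxa11 at E9.5 also lay higher (5.38 and 7.26 against 5.33 and 5.33), detected only at 7.26. The hinge holds notochord and the tissue behind it largely does not. P-CNH over CNH called 0 Hoxa genes by limma at each stage: at E9.5 with 0 at unadjusted p under 0.05 and 0.17 percent of tested probes called (37), at E10.5 with 0 and 0.318 percent (69), and at E11.5 with 1 and 0.161 percent (35). At E9.5 the differences ran from -0.22 (Hoxa9, SE 0.68) to 0.71 (Hoxa11, SE 0.46), at E10.5 from -0.11 (Hoxa4) to 0.26 (Hoxa7), and at E11.5 from -0.64 (Hoxa5, SE 0.45) to 0.77 (Hoxa11, SE 0.44). Hoxa4 at E11.5 gave -0.56 (SE 0.26, p 0.042). Without E11.5 P-CNH replicate 2 (Hoxa11 5.00) the E11.5 count was 1, Hoxa11 at 1.80 (adjusted p 0.0133). The notochord marker Shh was lower behind the hinge, by at least 15.0-fold at E9.5, at least 34.9-fold at E10.5 and -4.30 (SE 0.53) at E11.5. Differences of these differences between stages called 0 Hoxa genes by limma: E10.5 minus E9.5 with 0 at unadjusted p under 0.05 and 0 percent of tested probes, E11.5 minus E9.5 with 1 (Hoxa4, -0.80, SE 0.36, p 0.0383) and 0.0276 percent (6), and E11.5 minus E10.5 with 0 and 0.00461 percent (1).

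Through the middle of tail growth, from E9.5 to E12.5, neighbouring stages of the hinge gave no called Hoxa gene. These comparisons share pools from one step to the next. E10.5 over E9.5 CNH called 0 by limma with 2 at unadjusted p under 0.05, and 0.0737 percent of tested probes (16). They were Hoxa11 (1.79, SE 0.74, adjusted p 0.598) and Hoxa13 (2.12, SE 0.69, adjusted p 0.359), the latter far above the gap between plain means of 7.18 and 6.26 because the fit moves batch 1 by the NSB arrays. E11.5 over E10.5 CNH called 0 with 1 at unadjusted p under 0.05, Hoxa11 as above, and 0.0829 percent of tested probes (18). E12.5 over E11.5 CNH called 0 with 1 at unadjusted p under 0.05, Hoxa4 (-0.88, SE 0.24, p 0.00157, adjusted p 0.184), and 0.226 percent of tested probes (49). The first and second of these steps have no batch holding both stages. Other settings called genes in these steps. In the first, array weights called Hoxa11 and Hoxa13 higher. Hoxa11 was also called higher without a batch term (2.28), and Hoxa13 without the 5 arrays with fewest detected probes (2.17). Hoxa7 was called lower there with batch means removed (-2.28, adjusted p 0.00756). In the second, Hoxa11 was called lower under the settings named above, and array weights also called Hoxa9 and Hoxa13 lower. For Hoxa13 the plain means there were close, 7.18 at E10.5 and 6.99 at E11.5, and the fit moves batch 1 in this step too. In the third, Hoxa4 was called lower with array weights (-0.92) and without those 5 arrays (-0.88).

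At E13.5, when the tail stops growing, levels of the trunk gene Hoxa7 dropped. Its E13.5 pools lie below every other hinge pool, whereas those of Hoxa5 (11.30 and 9.39) and Hoxa13 (6.34 and 7.73) differ widely from each other. E13.5 over E12.5 CNH called 1 Hoxa gene, lower, beside 9.33 percent of tested probes (2026). Hoxa7 fell by 1.56 (SE 0.34, 2.95-fold, adjusted p 0.00863). Hoxa9 was not called (-2.0, SE 0.66, adjusted p 0.0576), and the second Hoxa2 probe was (-1.10, SE 0.30, adjusted p 0.0272). Batches 2 and 3 alone gave Hoxa7 -1.19 and -1.93, each with single pools, so neither tests the difference. The call was lost without E12.5 CNH replicate 2 (11.74; -1.35, adjusted p 0.189) or E13.5 CNH replicate 2 (9.81; -1.34, adjusted p 0.103), and also with cyclic loess (adjusted p 0.0635) and array weights (adjusted p 0.383).

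For this same step the count was 3 without E13.5 CNH replicate 1 (Hoxa5 11.30, Hoxa9 6.93), as Hoxa5 (-1.47, adjusted p 0.041) and Hoxa9 (-2.76, adjusted p 0.0151) joined. It was 2, Hoxa9 joining, without any of CLE replicate 1 (Hoxa9 5.12), CLE replicate 3 (6.09), E11.5 CNH replicate 1 (8.58), E11.5 CNH replicate 3 (5.68), E11.5 P-CNH replicate 1 (5.14) or E11.5 P-CNH replicate 2 (7.5), and it was 2 without background correction or with a BeadChip term. In this step endothelial markers were called higher in 2 of 3 tested, Pecam1 (at least 3.97-fold) and Cdh5 (1.5, SE 0.37), and 1 of 5 each of the lateral mesoderm (Bmp4 2.15, SE 0.44) and blood markers (Alas2 1.93, SE 0.52). Called lower were 1 of 5 each of the notochord and node (Noto -1.94, SE 0.56), axial progenitor (Wnt3a -1.27, SE 0.25) and hindgut markers (Cdx2 -1.09, SE 0.23). E13.5 CNH replicate 2 also had the fewest detected probes of all arrays, 10814.

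Over the whole of tail growth 4 Hoxa genes, Hoxa2, Hoxa4, Hoxa7 and Hoxa9, went down in the hinge. E13.5 over E9.5 CNH shares its E13.5 pools with the step just described and called these 4 lower, beside 23 percent of tested probes (5000). Hoxa2 fell by 0.85 (SE 0.27, adjusted p 0.0294), Hoxa4 by 1.46 (SE 0.28, adjusted p 0.000622), Hoxa7 by 2.17 (SE 0.36, adjusted p 0.000149) and Hoxa9 by 2.33 (SE 0.68, adjusted p 0.0176). Hoxa5 (0.13, SE 0.47, adjusted p 0.867) and Hoxa13 (0.84, SE 0.43, adjusted p 0.155) were not called. Batch 2 alone gave -0.71 for Hoxa2, -1.34 for Hoxa4, -1.97 for Hoxa7 and -1.68 for Hoxa9. It holds 1 E13.5 pool, so it does not test these calls. The other E13.5 pool, replicate 2, had the fewest detected probes of all arrays. Its lowest detected level was 7.19, and Hoxa13 read 7.73 there, near that limit. Where replicate 1 is left out, replicate 2 alone stands for E13.5. The count was 2 without E9.5 CNH replicate 1 (Hoxa2 10.03, Hoxa9 8.53), E9.5 CNH replicate 2 (10.05, 8.69) or E13.5 CNH replicate 2 (9.16, 4.79), Hoxa2 and Hoxa9 being lost, and 5 without E13.5 CNH replicate 1 (6.34 for Hoxa13, which joined at 1.86, adjusted p 0.00364).

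Other settings also moved that count, to 2 with cyclic loess, 1 with a fixed BeadChip term and 0 with array weights. Hoxa2 was lost as well without a batch term (-0.79, adjusted p 0.0518), with a random BeadChip term (-0.81, adjusted p 0.144) and with a replicate block (-0.82, adjusted p 0.0592). Without the 5 arrays with fewest detected probes Hoxa5 was called higher (0.73, adjusted p 0.0341). The tissue had changed by E13.5. Surface ectoderm markers were called higher in 3 of 5, Krt14 by at least 26.5-fold, Trp63 by at least 8.03-fold and Cldn4 by 4.03 (SE 0.64), with a list mean of 5.63 and 5.72 at E9.5 and 8.79 and 8.47 at E13.5. Endothelial markers were called higher in 3 of 3 tested, Cdh5 by at least 2.59-fold, and axial progenitor markers lower in 2 of 5, Nkx1-2 by -2.67 (SE 0.54) and Wnt3a by -0.94 (SE 0.26). How much of the Hoxa decrease follows the mixture of tissues was not tested. In the other Hox clusters 12 of 26 tested genes were called lower and 4 higher, Hoxc13 among the latter (2.69, SE 0.32, adjusted p 3.84e-06).

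Behind the hinge, Hoxa4 and Hoxa7 were lower by E11.5. E10.5 over E9.5 P-CNH called 0 Hoxa genes by limma with 1 at unadjusted p under 0.05, Hoxa13 (2.14, SE 0.66, adjusted p 0.471), and 0.0967 percent of tested probes (21). The count was 1 with array weights or without the 5 arrays with fewest detected probes, Hoxa13 higher in both (2.16 and 2.17). It was also 1 with batch means removed, but there the gene was Hoxa7, lower (-1.95, adjusted p 0.0305). E11.5 over E9.5 P-CNH called 2 lower, beside 3 percent of tested probes (652). Hoxa4 fell by 1.07 (SE 0.28, 2.11-fold, adjusted p 0.0311) and Hoxa7 by 1.33 (SE 0.36, 2.52-fold, adjusted p 0.0408). Hoxa2 (-0.95, SE 0.27, adjusted p 0.0657) and Hoxa13 (1.07, SE 0.43, adjusted p 0.245) were not called. Hoxa2 was called lower with no background correction (adjusted p 0.0325), at offset 100 (0.023), with batch means removed (0.0315) and with a fixed (0.0391) or random (0.0199) BeadChip term. Batch 3 alone, with a single E9.5 P-CNH pool, gave -0.97 for Hoxa4 and -1.28 for Hoxa7.

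These P-CNH calls depended on single arrays. Hoxa7 was lost in 18 of 36 fits with 1 array left out, and Hoxa4 without E9.5 P-CNH replicate 1 (9.83), E9.5 P-CNH replicate 2 (9.86), E11.5 P-CNH replicate 1 (9.06) or E11.5 P-CNH replicate 2 (8.72). The count was 0 without either E9.5 P-CNH pool, 1 in 16 fits and 3 in 4 fits, most of those arrays standing outside the comparison. Neither gene kept its call with cyclic loess (adjusted p 0.269 and 0.171), array weights (adjusted p 0.989 and 1) or a replicate block (adjusted p 0.0658 and 0.082). Hoxa4 was lost without a batch term (-0.95, adjusted p 0.158), and Hoxa7 with no probe filter (adjusted p 0.0662). Leaving out the 5 arrays with fewest detected probes keeps a single E11.5 P-CNH pool. Differences there were -0.98 for Hoxa7, -1.12 for Hoxa2 and -1.73 for Hoxa11, while Hoxa13 was higher (1.34). Surface ectoderm markers were called higher in 3 of 5 (Krt14 at least 4.25-fold), with list means of 6.11 and 5.42 at E9.5 and 7.66 and 7.35 at E11.5. Blood markers were called higher in 2 of 5 (Alas2 at least 2.76-fold) and somite markers in 2 of 2 tested (Meox1 1.84, SE 0.48), and the Hoxa decrease cannot be told apart from this change of tissue.

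Taken along the axial progenitor sites in order of stage (E7.5 P, NSB, then CNH from E9.5 to E13.5), the first region with every array detected differed by gene. It was E7.5 P for Hoxa2 and Hoxa5, NSB for Hoxa4 and Hoxa7, E9.5 CNH for Hoxa9, and E10.5 CNH for Hoxa11 and Hoxa13, with none for Hoxa3. Of 21 pairs of these 7 genes the later gene in the cluster had the later onset in 17, the same in 3 and an earlier one in 1, Hoxa5 before Hoxa4, and the rank correlation of place with onset was 0.90 (n = 7 genes, no test made). With detection at p under 0.05, or on any array, the counts were 12, 6 and 3 and the correlation 0.49, because Hoxa4 and Hoxa13 (6.35 and 6.06) moved to E7.5 P. That move belongs to the brightest Hoxa13 probe alone. The other Hoxa13 probes were first detected at E10.5 CNH on this path under either looser reading. Taking the region where a gene passes the middle of its own range gave 13, 5 and 3 and a correlation of 0.66. Counting CLE at the same step as NSB, a reading chosen after seeing the data, moved Hoxa13 to E8.5 (7.72, 7.12 and 6.14 in CLE), ahead of Hoxa9 and Hoxa11, and gave 14, 4 and 3 and a correlation of 0.67. Those CLE levels lay near the lowest detected level of each array, 7.10, 6.65 and 5.88. The order thus depends on the path and threshold, above all for the brightest Hoxa13 probe. Onset here means the first sampled region of the path, which leaves out PP and St5. Off the path, Hoxa4 and Hoxa7 were already detected in both E7.5 PP pools, and Hoxa9 and Hoxa11 in both E8.5 St5 pools. An order counting those regions was not made.

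Genes closest to each Hoxa gene in level over the 16 regions were read off by correlation among 15548 genes, with no test. The values correlated were region means from the fit with its batch term, not plain means. A single region far from the rest can set much of such a correlation. Hoxa2 stood at 5.25 in E7.5 A and from 8.54 to 10.30 in all other regions. Cdx2 (6.94 against 12.78) and Wnt3a (5.04 against 12.16) were also lower in A than in P. Hoxa2 ran with Cdx2 (r 0.946), Wnt3a (0.935) and Evx1 (0.933), Hoxa4 with Fgf17 (0.960), Fgf8 (0.959) and Shf (0.956), and Hoxa5 with Hoxb7 (0.920), Rspo3 (0.914) and T (0.913). Hoxa7 ran with Hoxc6 (0.967), Hoxd4 (0.937) and Hoxb6 (0.916), and Hoxa9 with Gbp3 (0.945), Svep1 (0.919) and Hapln1 (0.917). For Hoxa11 they were Hoxd1 (0.935), LOC100047800 (0.905) and Pon3 (0.897), and for Hoxa13 Hoxc12 (0.907), Jam2 (0.905) and Adamts9 (0.901). Within the cluster the closest pairs were Hoxa2 with Hoxa5 (0.908) and Hoxa4 with Hoxa7 (0.905), and the most distant Hoxa2 with Hoxa13 (0.264). Hoxa9 and Hoxa11, called together in St5, had r 0.782.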

How the data were processed

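The deposited table holds, per the authors, a raw bead summary intensity and a detection p-value for each of 45281 probes on 36 arrays. The intensity column is the scanner's average bead signal, and the deposited p-value compares it with negative control beads. The authors' own steps were the lumi package with a variance-stabilising transformation, robust spline normalisation and ComBat, in a lumi version that is not given. In their place, the deposited intensity was corrected and normalised with neqc in limma 3.58.1 (R 4.3.3, statmod 1.5.0), with negative control values inferred from the detection p-values and an offset of 16. Probes detected at p under 0.01 on at least 1 array were kept (21712 of 45281, 47.9 percent). The linear model held 16 regions and 3 batches, leaving 18 residual degrees of freedom, with empirical Bayes moderation (prior 3.85). Benjamini-Hochberg adjustment was made within each of 21 comparisons and 3 differences of differences. Figures and tables used Python 3.11.15, NumPy 2.4.6 and matplotlib 3.10.9.

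The members were taken by symbol, all 15 probes, and 12 of them passed the filter. Each gene is reported by its probe with the highest mean log2 level over all arrays. Members and lists were chosen with earlier results of these data known. Genes named beside the members are those of fixed lists (other Hox genes, upstream genes, cofactors, chromatin genes, cluster neighbours and markers of tissues), up to 3 of the largest called per comparison, and the closest genes by correlation. Alternatives were cyclic loess, no background correction, a larger offset (100), no batch term, batch means removed before the fit, BeadChip as a fixed or random block, a replicate block, other filters, array weights, each batch alone, leaving out each array, and leaving out the 5 arrays with fewest detected probes. The last of these was chosen after seeing the data, as was a path of onset with CLE. The fit was tested on simulated data, where 29 of 50 probes raised by 2 on the log2 scale and 3 of 50 raised by 1 were called between E10.5 CNH and NSB, so differences near 1 are often missed with these numbers of pools. No per-array column was left unused, 0 in all.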

Additional observations from a re-analysis of the deposited data

How the results depend on the processing

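No alternative reversed a called Hoxa difference. Kept under every setting were the Hoxa2, Hoxa4 and Hoxa5 calls in E7.5 P over A the Hoxa7 calls in NSB over E7.5 P, St5 over RN and St5 over PP, and the Hoxa11 and Hoxa13 calls in E10.5 CNH over NSB. Of 168 member differences per setting, the side of the threshold was the same in 164 with no background correction, 157 with cyclic loess, 163 at offset 100, 154 without a batch term, 157 with batch means removed, 159 and 158 with a fixed or random BeadChip block, 168 with the stricter filter, 166 with no filter, 138 with array weights and 150 without the 5 arrays with fewest detected probes (an alternative chosen after seeing the data). Hoxa9, Hoxa11 and Hoxa13 lie near background on many arrays, where a drop to undetected in one pool moves a mean of 2 pools widely, and comparisons crossing from batch 1 rest on 1 array.

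Counts of called Hoxa genes moved by more than 1.5 times as follows, and the cause was not tested. PP over P (reported 1) gave 0 with no background correction, cyclic loess, an offset of 100, batch means removed, and with BeadChip fixed or random. NSB over RN (0) gave 2 with array weights and 1 within batch 1. CLE over NSB (0) gave 2 without a batch term and 1 with batch means removed, BeadChip random, or without the 5 arrays. St5 over St1 (3) gave 5 with array weights and 5 within batch 1. NSB over E7.5 P (2) gave 1 with cyclic loess. E9.5 CNH over NSB (1) gave 0 with cyclic loess or BeadChip fixed, 4 without a batch term, 5 with batch means removed, 3 with BeadChip random, 6 with array weights and 4 without the 5 arrays. E10.5 over E9.5 CNH (0) gave 1 without a batch term (Hoxa11, higher), with batch means removed (Hoxa7, lower) or without the 5 arrays (Hoxa13, higher). It gave 2 with array weights (Hoxa11 and Hoxa13, higher). E11.5 over E10.5 CNH (0) gave 1, Hoxa11 lower, without a batch term, with BeadChip random or without the 5 arrays. It gave 3 with array weights (Hoxa9, Hoxa11 and Hoxa13, lower). E12.5 over E11.5 CNH (0) gave 1 with array weights or without the 5 arrays.

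E13.5 over E12.5 CNH (1) gave 2 without background correction, with BeadChip fixed or random, or by any probe, and 0 with cyclic loess or array weights. Batches 2 and 3 alone hold single pools of these stages and are not counted. E13.5 over E9.5 CNH (4) gave 2 with cyclic loess, 1 with BeadChip fixed and 0 with array weights. St5 over PP (1) gave 3 with cyclic loess or without a batch term, 2 with batch means removed or BeadChip fixed or random, 6 with array weights (Hoxa5 among them, lower) and 4 without the 5 arrays. E10.5 over E9.5 P-CNH (0) gave 1 with batch means removed (Hoxa7, lower), and 1 with array weights or without the 5 arrays (Hoxa13, higher). E11.5 over E9.5 P-CNH (2) gave 0 with cyclic loess or array weights, and 1 without a batch term or with no filter. Within batch 3 and without the 5 arrays a single pool is left on one side. In the latter Hoxa13 was higher (1.34), and Hoxa2 and Hoxa11 lower. Smaller moves were E10.5 CNH over NSB (4), from 3 to 6 over these settings, NSB over E7.5 P with 3 under BeadChip fixed (Hoxa9 2.69, adjusted p 0.0295, joining), E13.5 over E9.5 CNH with 5 without the 5 arrays (Hoxa5 joining, higher), and E11.5 over E9.5 P-CNH with 3 under 5 settings (Hoxa2 joining, lower). The onset count of 17 was 12 under either looser reading and 14 with CLE counted beside NSB, an alternative chosen after seeing the data.

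With a replicate block beside batch, the count went from 1 to 0 for E9.5 CNH over NSB and from 2 to 0 for E11.5 over E9.5 P-CNH, and from 4 to 3 for E13.5 over E9.5 CNH, where Hoxa2 was lost (-0.82, adjusted p 0.0592), and 164 of 168 member differences kept their side. In 7 of 21 comparisons every pair of equal number had a correlation over 0.1, a value that with 2 pools a side is the same for both pairs by construction. The labels tie no number to a shared litter or day, but some pools share more than a number. In batch 1 each replicate number had its own BeadChip, with 45 pieces for each E8.5 region and 17 for each E10.5 region. E7.5 A and P pools of equal number in batch 2 had equal piece counts, 9 and 13, on 1 BeadChip. Whether such pools came from the same embryos is not stated. Hoxa calls between these regions kept their side with the replicate block.

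Leaving out each array in turn, a lone remaining pool being assumed to vary like other regions, counts ranged 3 to 3 for P over A, 0 to 2 for PP over P, 0 to 0 for NSB over RN and for St1 over NSB, 0 to 1 for CLE over NSB, 0 to 3 for St5 over St1 and 1 to 3 for St5 over RN. For P-CNH over CNH they ranged 0 to 0 at E9.5 and E10.5 and 0 to 1 at E11.5. Between stages they ranged 2 to 2 for NSB over E7.5 P, 0 to 1 for E9.5 CNH over NSB, 2 to 5 for E10.5 CNH over NSB, 0 to 0 for the hinge steps from E9.5 to E12.5, 0 to 3 for E13.5 over E12.5 CNH, 2 to 5 for E13.5 over E9.5 CNH, 1 to 1 for St5 over PP, 0 to 0 for E10.5 over E9.5 P-CNH, 0 to 3 for E11.5 over E9.5 P-CNH and 0 to 0 for the differences of differences. NSB replicate 3 could not be left out of the 7 comparisons that cross from batch 1, and comparisons whose regions share no batch have no within-batch value.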

Other observations

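Hoxa6 and Hoxa10 were detected on 0 arrays. Of the genes beside the cluster, Evx1 was higher in P over A (4.63, SE 0.32), NSB over RN (2.04, SE 0.35) and St5 over RN (2.91, SE 0.35) and lower in E13.5 over E9.5 CNH (-1.31, SE 0.36). Skap2 was higher in P over A (1.06, SE 0.20) and lower in St5 over RN (-0.85, SE 0.21), Snx10 lower in St5 over St1 (-1.11, SE 0.22), St5 over RN (-0.96, SE 0.22) and E13.5 over E9.5 CNH (-0.61, SE 0.22), and Hibadh was called in 0 comparisons.

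Among 9 Hox cofactor genes, Meis2 was lower in E10.5 CNH over NSB (-3.42, SE 0.43), Pbx3 in NSB over E7.5 P (-3.13, SE 0.75) and Meis1 in St5 over RN (-2.04, SE 0.44), and Meis1 was higher in E13.5 over E9.5 CNH (2.40, SE 0.46). Of 11 chromatin genes with a probe, Ezh2 was lower in NSB over E7.5 P (-3.91, SE 0.92) and Suz12 in E13.5 over E12.5 CNH (-1.17, SE 0.32). Of the upstream genes, Cdx1 was lower in St5 over St1 (-1.90, SE 0.30) and in E10.5 CNH over NSB (-5.43, SE 0.30), and Cdx4 in E13.5 over E12.5 CNH (-1.95, SE 0.48).

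The somite marker Tcf15 was lower in PP over P (-3.63, SE 0.40) and the neural tube marker Irx3 as well (-3.53, SE 0.57). Hindgut markers were lower in E9.5 CNH over NSB in 4 of 5, Trh by -5.12 (SE 0.37). In the other Hox clusters 8 of 26 tested genes were higher in St5 over St1, Hoxd9 by 4.84 (SE 0.56) and Hoxd8 by 4.24 (SE 0.32).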
